A study of Mus musculus with 6 samples.

Results

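Open chromatin was described at 7 mouse genes of the renin-angiotensin system and of the peptidases of the proximal tubule brush border: Agt, Agtr1a, Mas1, Ace, Mme, Enpep and Anpep. The genes were chosen by name, with positions and starts from mouse genome GRCm38 and the basic set of GENCODE release M21. A region of open chromatin was assigned to a gene when its strongest summit lay in the gene body or within 20 kb of it. This gave 57 of the 99359 regions of the study. Of these, 47 were present in at least 3 of the 6 libraries and were tested, among 74781 tested regions in all. The libraries were made by ATAC-seq, in which a transposase inserts sequencing adapters into accessible DNA. Each library held 3 hand-dissected S1 proximal tubules, the part of the tubule next to the glomerulus, from male C57BL/6 mice (Taconic, genotype WT) that were 7 weeks old. The 3 Sham libraries followed a sham operation and the 3 UNx libraries the surgical removal of 1 kidney (unilateral nephrectomy), both labelled 24 h, and the comparison asked how accessibility differed between them. No transgene, drug or other agent is named for either group. The labels do not say whether the libraries of a group came from separate mice, so p-values measure only the spread between these samples, which may be technical.

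Each library had its own peak list, and the value compared was a percentile rank. Every list was shortened to its 77355 strongest peaks by the −log10 q of the peak caller, and a peak near 100 was among the strongest of its list. A value of 0 means that the region was not among those peaks. The rank refers to the summit of a peak and is not summed over its width. A lower rank in fewer open cells and a lower rank in less open chromatin per cell cannot be told apart. Of the 57 regions, 10 were promoter regions, with their summit 1 kb or less from a start of the gene. A further 2 lay as close to the start of another gene and were kept apart, and the other 45 were distal. Regions are named by the distance of the summit from the nearest start of their gene, with a minus sign for upstream.

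Angiotensinogen, the product of Agt, is cut by renin to angiotensin I, which angiotensin-converting enzyme (Ace) trims to angiotensin II, the ligand of the AT1a receptor (Agtr1a). Neprilysin (Mme) forms a shorter angiotensin that acts on the Mas receptor (Mas1), while aminopeptidase A (Enpep) and aminopeptidase N (Anpep) break angiotensin II down from its amino end. In the proximal tubule these enzymes sit on the brush border membrane, where they also cut filtered peptides, and angiotensin II made in the lumen acts on sodium reabsorption.

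The sequences at the summits on which the results turn are given 5′ to 3′ in the direction of transcription of the gene, from the RefSeq copy of GRCm38. They are shown for the Agt, Ace and Mme promoters and for 6 further regions whose values did not overlap between the groups. Of these 6, Agtr1a +3716 bp met the filter for testing only through the UNx libraries. Each is centred on the summit. Capitals mark matches to a short consensus string of a transcription factor family, on either strand.
Agt promoter (chr8:124569773-124569893, minus strand): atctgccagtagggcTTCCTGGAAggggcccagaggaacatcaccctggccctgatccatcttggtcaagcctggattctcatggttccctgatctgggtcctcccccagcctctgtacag
Agtr1a +3716 bp (chr13:30340097-30340217, plus strand): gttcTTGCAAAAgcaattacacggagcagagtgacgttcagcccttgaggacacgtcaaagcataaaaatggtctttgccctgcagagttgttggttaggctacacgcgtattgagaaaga
Ace full-length promoter (chr11:105967780-105967900, plus strand): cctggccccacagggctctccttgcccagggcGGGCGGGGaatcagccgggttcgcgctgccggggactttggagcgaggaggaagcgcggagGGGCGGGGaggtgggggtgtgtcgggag
Ace internal promoter (chr11:105974684-105974804, plus strand): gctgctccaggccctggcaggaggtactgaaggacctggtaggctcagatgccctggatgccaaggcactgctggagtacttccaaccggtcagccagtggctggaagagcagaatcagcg
Ace +15320 bp (chr11:105990468-105990588, plus strand): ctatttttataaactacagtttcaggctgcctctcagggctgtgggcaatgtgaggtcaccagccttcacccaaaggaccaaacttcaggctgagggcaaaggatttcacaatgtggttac
Ace +29603 bp (chr11:106004751-106004871, plus strand): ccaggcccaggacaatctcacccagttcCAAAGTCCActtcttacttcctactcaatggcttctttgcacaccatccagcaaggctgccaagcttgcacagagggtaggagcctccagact
Mme promoter (chr3:63295957-63296077, plus strand): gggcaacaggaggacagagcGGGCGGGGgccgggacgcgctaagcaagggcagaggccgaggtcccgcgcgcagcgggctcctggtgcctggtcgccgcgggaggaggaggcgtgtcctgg
Mme +1888 bp (chr3:63297923-63298043, plus strand): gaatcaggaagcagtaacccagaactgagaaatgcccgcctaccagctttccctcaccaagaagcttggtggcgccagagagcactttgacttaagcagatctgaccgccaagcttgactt
Mas1 promoter (chr17:12869012-12869132, minus strand): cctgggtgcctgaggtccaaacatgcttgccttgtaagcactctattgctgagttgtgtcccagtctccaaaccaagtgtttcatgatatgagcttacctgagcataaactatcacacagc
Mas1 +13585 bp (chr17:12834475-12834595, minus strand): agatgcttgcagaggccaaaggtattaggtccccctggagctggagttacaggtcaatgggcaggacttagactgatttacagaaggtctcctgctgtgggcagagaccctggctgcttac

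In these windows the Agt promoter held the STAT string TTCNNNGAA and the full-length Ace promoter 2 separate copies of the SP and KLF string GGGCGGGG. The Mme promoter held 1 copy of GGGCGGGG. The Ace region at +29603 bp held the HNF4 string CAAAGTCCA and the Agtr1a region at +3716 bp the C/EBP string TTGCNNAA. All 12 strings were searched in the 201 bp around the summit of each tested region, on both strands. GGGCGGGG was in 4 of the 47 tested regions of the 7 genes (8.51%) and in 6.99% of all tested regions. TTCNNNGAA was in 2 (4.26% against 5.98%), TTGCNNAA in 3 (6.38% against 7.94%) and the AP-1 string TGANTCA in 2 (4.26% against 7.24%). CAAAGTCCA and the HNF1 string GTTAATNAT were each in 1 (2.13% against 2.42% and 3.11%), the latter in the Agt region at +2294 bp. None of the 47 held GTCANAGGT (PPAR and HNF4 direct repeat), ACANNNTGT (steroid receptors), GGGACTTTC (NF-kB), CCGGAAGT (ETS), AGGGGGCGC (CTCF) or TGACGTCA (CREB), which were in 1.27%, 5.38%, 0.226%, 1.30%, 1.38% and 0.683% of all tested regions. A match describes letters in a window and does not show that a factor binds there.

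The deposited lists held 77355 to 100999 peaks, Sham 2 being the shortest, and their sequencing depth is unknown. Promoter regions were present for 6 of 6 S1 marker genes, with mean ranks of 80.3 to 95.2, and for none of the immune markers (Ptprc, Cd68, Cd3e). Of 5 markers of smooth muscle, mesangial and renin cells, Acta2, Tagln, Pdgfrb and Ren1 had none. Myh11 had one in 5 lists, with ranks of 8.35, 7.29 and 24.7 in Sham and 0.335, 47.7 and 0 in UNx libraries. Of 5 markers from the loop of Henle to the collecting duct, Slc12a3 and Aqp2 had none, while Umod, Calb1 and Slc12a1 had mean ranks of 67.4, 65.6 and 43.5. No tested marker promoter had a limma adjusted p under 0.05, but the groups lay apart at some. Of the S1 markers, Lrp2 and Cubn were lower in every UNx library, by 3.45 and 6.64 on average (limma adjusted p = 0.260 and 0.214). The groups overlapped at the other S1 markers. Of the S2 and S3 markers, Slc22a7 (mean rank 58.4) was lower in every UNx library, by 16.5 (limma adjusted p = 0.226). Slc16a9 (mean rank 90.5) was higher in every one, by 6.50 (limma adjusted p = 0.123). Slc5a1 was in 1 list and Slc7a13 had no promoter region. The groups overlapped at the podocyte markers. Groups lay apart at 19.9% of protein-coding promoters. The ranks of the 5 endothelial markers, which all had a promoter region, summed to 23.5, 39.8 and 25.2 in the Sham libraries and to 4.39, 0 and 0 in the UNx libraries, so that Pecam1, Cdh5, Kdr, Emcn and Flt1 were all at 0 in UNx 2 and UNx 3. Slc12a1 ranked 57.9, 52.4 and 60.2 in Sham and 38.2, 32.9 and 19.4 in UNx libraries, but Umod, another marker of the loop, and Calb1 were 3.91 and 0.854 higher in UNx on average. The part of these cells in the results below was not tested.

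No region of the 7 genes passed the test for a difference between UNx and Sham. limma called 0.788% of all tested regions (589 of 74781, 325 higher and 264 lower in UNx) at an adjusted p under 0.05. This count was 4 to 76 when a library was left out, and its split was 151 higher and 29 lower with a −log10 q of at least 5 and 19 and 57 without UNx 2. limma called 0 of the 47 regions of the 7 genes, where the lowest adjusted p was 0.100, at Mme +1888 bp. At an unadjusted limma p under 0.05 there were 15 of the 47 (31.9%, 8 higher and 7 lower in UNx), against a background of 18.6%. The 3 values of one group lay wholly above or below those of the other in 14 of the 47 (29.8%, 7 in each direction), against 23.7% of all tested regions. The median difference, UNx minus Sham, was −0.965 percentile points over the 47 regions and −0.0112 over all tested regions. It was 2.20 against 2.14 with all deposited peaks, 3.25 against 2.95 with a −log10 q of at least 5, 0.0638 with 50% overlap and 0.571 without Sham 1. By gene, the unadjusted p was under 0.05 in 0 of 4 tested regions at Agt, 1 of 5 at Agtr1a, 4 of 8 at Mas1, 5 of 10 at Ace, 2 of 5 at Mme, 1 of 9 at Enpep and 2 of 6 at Anpep. The share with such a p depended on the setting. It was below that of all tested regions without Sham 2 (14.9% against 15.9%) and without UNx 1 (12.8% against 14.8%). In the other settings of the test it was above, by little with GC-corrected ranks and a replicate block together (17.0% against 16.6%). It was also above by little with ranks by fold enrichment (15.6% against 13.8%). With GC-corrected ranks alone it was 21.3% against 17.8%. The gap was wider with a replicate block alone (29.8% against 17.2%), without Sham 3 (23.4% against 14.1%) and with 50% overlap (32.7% against 18.6%). Of the 47 regions, 11 were in 3 to 5 lists and 3 of the 15 were among these. The 1 at Agtr1a, +3716 bp, met the filter only through the UNx libraries. It is counted in the 15 and in the 14 but gives no evidence of a difference.

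**Figure D1:**
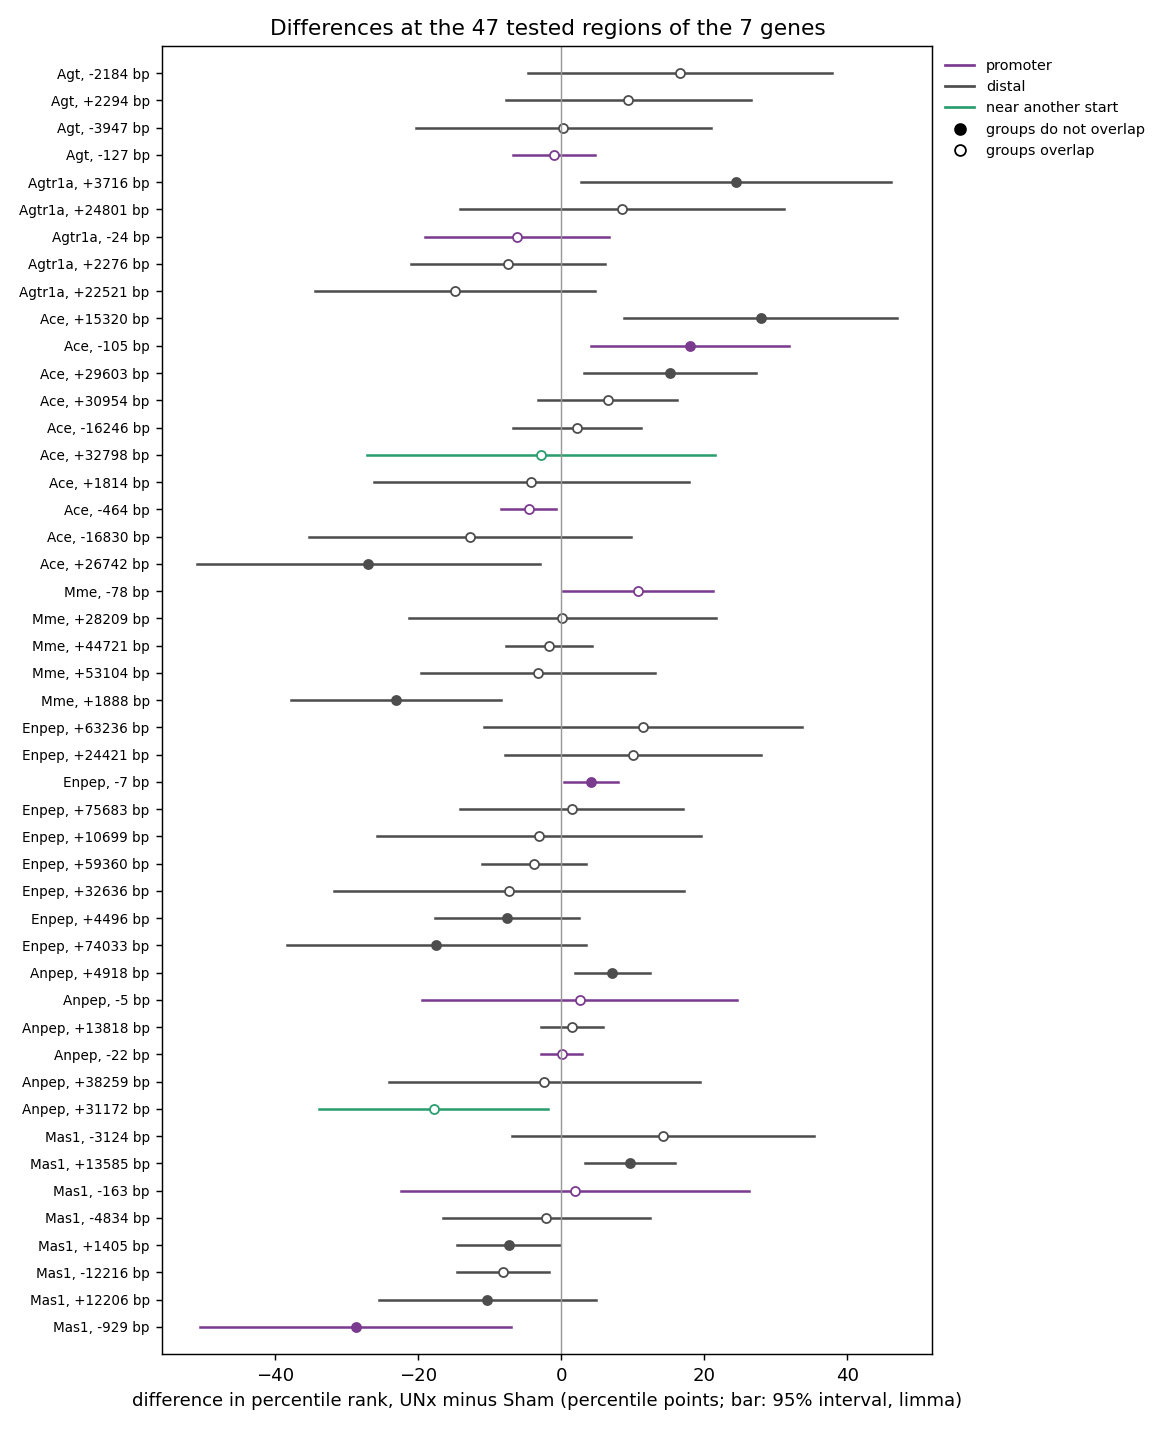
Difference in percentile rank, UNx minus Sham, at the 47 tested regions of the 7 genes, with bars for the 95% interval from limma, coloured by class and filled where the groups did not overlap. The largest differences in either direction, 27.9 at Ace +15320 bp and −28.7 at Mas1 −929 bp, have wide intervals, and the strongest promoter, Anpep −22 bp, has one of the narrowest. Agtr1a +3716 bp met the filter for testing only through the UNx libraries, so its interval gives no evidence of a difference.

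Agt, the gene of the precursor from which all angiotensins are cut, had a strong promoter region and weaker regions around it. Its window held 5 regions, 1 promoter and 4 distal. The promoter region (chr8:124569509-124570234) ranked 84.6, 93.1 and 85.9 in Sham 1, 2 and 3 and 85.3, 86.1 and 89.2 in UNx 1, 2 and 3. All UNx values lay inside the Sham range. The difference was −0.965 ± 2.72 (SE; 95% interval −6.68 to 4.75; limma adjusted p = 0.889), and it was 1.64 without Sham 2 and −11.8 by fold enrichment. The strongest distal region lay 3947 bp upstream and nearer to the start of Capn9, at 2458 bp. It ranked 54.2, 26.1 and 56.5 in Sham and 48.0, 54.7 and 35.1 in UNx libraries, with Sham 2 and UNx 3 low and the groups mixed. Its difference was 0.324 (interval −20.2 to 20.9). At −2184 bp the ranks were 48.3, 20.4 and 22.7 in Sham and 45.9, 45.8 and 49.6 in UNx, a difference of 16.6 whose interval ran from −4.60 to 37.8. The intronic region at +2294 bp was in 3 lists and the region at −16330 bp in 1, Sham 2.

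Agtr1a encodes the receptor through which angiotensin II acts on the tubule cell. Of its 6 regions, 1 was at the promoter and 5 were in introns. The promoter region (chr13:30336197-30337347, summit 24 bp upstream) ranked 77.8, 80.7 and 61.8 in Sham and 74.4, 57.6 and 69.7 in UNx libraries. These ranges overlapped, with the lowest Sham value below 2 of the UNx values. The difference was −6.16 ± 6.14 (SE; interval −19.1 to 6.73; limma adjusted p = 0.631), and ran from −1.35 without UNx 2 to −12.0 without Sham 3. The strongest distal region, at +2276 bp, ranked 65.6, 74.8 and 66.8 in Sham and 49.8, 65.2 and 70.0 in UNx, again with overlap and a difference of −7.39 that was −1.45 without UNx 1 and −11.5 without UNx 3. The next region along the gene, at +3716 bp (chr13:30339852-30340331), was at 0 in Sham 1 and Sham 2 and at 17.7 in Sham 3, and ranked 37.1, 32.0 and 22.0 in the UNx libraries. Every UNx value was above every Sham value. The region was in 4 of the 6 deposited lists and met the filter of 3 lists only through the UNx libraries, so a difference was bound to appear and its test is not given. The region at +24801 bp was in all 6 lists with overlapping ranks of 30.5 to 69.1. Those at +22521 and +23488 bp were in 3 lists and 1 list.

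Mas1 encodes the receptor for shorter angiotensins that oppose many actions of angiotensin II, and its own promoter regions had the lowest mean ranks of the 7 genes. Its window held 10 regions, 2 at promoters and 8 distal. The region 929 bp upstream of the most upstream start (chr17:12868627-12869273) ranked 33.7, 30.4 and 38.8 in Sham and 14.9, 0 and 1.81 in UNx libraries. All UNx values were below all Sham values. The difference was −28.7 ± 10.3 (SE; interval −50.4 to −7.00; limma adjusted p = 0.151). The region was nevertheless listed in all 6 deposited lists. The authors' fold enrichment there was 7.36, 5.04 and 8.08 in Sham and 5.13, 3.96 and 4.62 in UNx libraries. These values overlapped, with Sham 2 below UNx 1. With all deposited peaks ranked the difference was −20.2 (limma adjusted p = 0.429). The promoter region at −163 bp, at an internal start, ranked 34.8, 8.86 and 0 in Sham and 0, 37.2 and 12.3 in UNx, with each group spanning nearly the same range.

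Strong regions in the Mas1 window lay away from the annotated starts and did not share a direction. The region at +13585 bp (chr17:12834017-12835261), beyond the 3′ end of the gene, ranked 83.8, 75.4 and 87.5 in Sham and 90.1, 94.4 and 91.0 in UNx libraries. Here every UNx value was the higher, by 9.61 ± 3.00 on average (SE; interval 3.33 to 15.9; limma adjusted p = 0.108), by 6.21 without Sham 2 and by 16.8 with ranks by fold enrichment. Nearer the gene, the region at +12206 bp ranked 59.0, 67.3 and 55.2 in Sham and 55.1, 47.8 and 47.7 in UNx, the opposite order, with a difference of −10.3 (interval −25.4 to 4.83). In an intron, the region at +1405 bp ranked 88.2, 85.7 and 84.7 in Sham and 73.0, 82.5 and 81.1 in UNx. Its groups were also apart, with a difference of −7.34 ± 3.45 (SE; limma adjusted p = 0.263) that was −4.39 without UNx 1 and −2.54 by fold enrichment. Upstream of the gene, the region at −12216 bp was nearer to the start of Mrgprh, at 4325 bp. It ranked 88.7, 92.1 and 92.5 in Sham and 77.1, 90.4 and 81.6 in UNx, where UNx 2 lay within the Sham range. That difference, −8.09 ± 3.07 (SE; limma adjusted p = 0.170), was −5.10 without UNx 1 and −1.15 by fold enrichment. The intronic region at −4834 bp was in all 6 lists with overlapping ranks of 49.0 to 71.1, and the other 3 were in 1 to 3 lists.

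**Figure D2:**
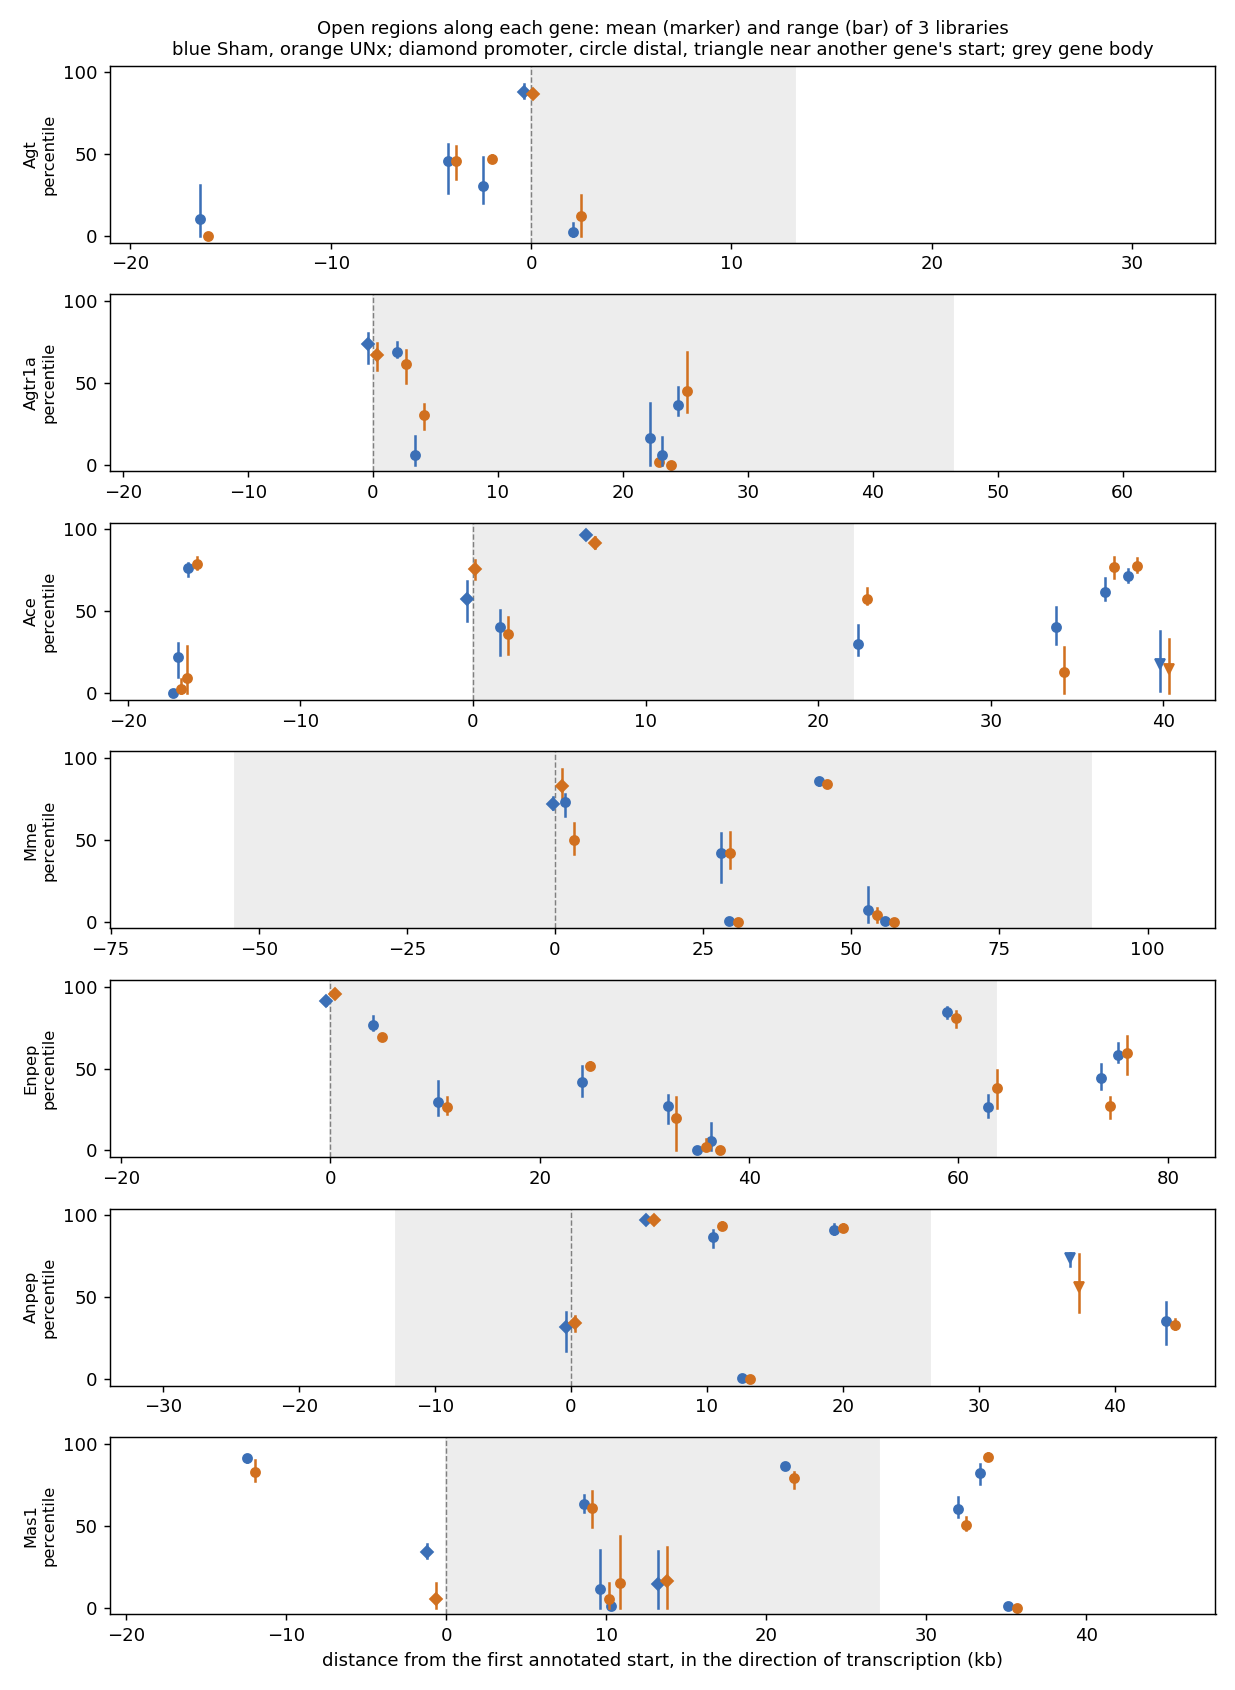
Percentile rank of every region along the windows of the 7 genes, against distance from the first annotated start in kb, with blue for Sham, orange for UNx, markers for the mean and bars for the range of 3 libraries (colours are set slightly apart sideways). Strong regions lie at the start in Agt and Enpep, at the internal start in Ace and Anpep, and away from the starts in Mas1.

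Ace makes angiotensin II from angiotensin I and has 2 annotated starts in the basic GENCODE set (4 in the comprehensive one). Of the 2, one is for the full-length enzyme and the internal one for the shorter form known from testis. The internal promoter region was the stronger, and the regions around the 2 starts differed in direction. At the full-length start (chr11:105967415-105968619, summit 105 bp upstream) the ranks were 68.6, 44.2 and 60.5 in Sham and 81.5, 69.9 and 75.9 in UNx libraries. No UNx value fell inside the Sham range. The difference was 18.0 ± 6.58 (SE; interval 4.19 to 31.8; limma adjusted p = 0.157), and 11.2 without Sham 2, the lowest library. At the internal start (chr11:105974469-105976089), with a summit 464 bp upstream in a coding exon of the full-length transcript, the ranks were 97.0, 97.6 and 95.1 in Sham and 92.5, 95.1 and 88.4 in UNx. UNx 2 lay just above Sham 3, the lowest Sham value, and the other UNx values lay below it. The difference was −4.55 ± 1.85 (SE; interval −8.44 to −0.669; limma adjusted p = 0.197), and −2.77 without UNx 3. The difference between the 2 starts was not tested.

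Regions on the 3′ side of Ace made up most of its other values. The window held 11 regions, 2 at promoters, 8 distal and 1 near the start of Kcnh6. Just past the gene, the region at +15320 bp (chr11:105990087-105990962), 4147 bp from the start of Ace3, ranked 24.5, 23.4 and 41.8 in Sham and 54.3, 54.6 and 64.4 in UNx libraries. The groups lay apart, and the difference of 27.9 ± 9.08 (SE; interval 8.83 to 47.0; limma adjusted p = 0.121) was the largest in the direction of UNx among the 47 tested regions. The region at +29603 bp (chr11:106004406-106005198), 3313 bp from the start of Kcnh6, ranked 57.1, 70.1 and 58.1 in Sham and 70.4, 82.9 and 77.7 in UNx. It too was higher in every UNx library, by 15.2 ± 5.72 on average (SE; limma adjusted p = 0.166), and by 9.04 with ranks by fold enrichment. Between them, the weaker region at +26742 bp ranked 30.4, 37.4 and 52.9 in Sham and 11.9, 28.0 and 0 in UNx, the opposite order, with a difference of −26.9 (interval −50.8 to −3.01; limma adjusted p = 0.214). The strongest distal region, at −16246 bp, was nearer to the start of Cyb561, at 7287 bp. It ranked 79.5, 78.0 and 71.6 in Sham and 75.8, 77.1 and 82.9 in UNx, with overlap. The regions at +30954 and +1814 bp were also in all 6 lists with overlapping ranks. The weak regions at −16830 and −17152 bp and that near Kcnh6 were in 4, 1 and 5 lists. Endothelium is a known site of Ace expression, and the endothelial marker ranks given above were lower in UNx while the full-length Ace promoter was higher. Their part in these values was not tested.

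Mme encodes neprilysin, a brush border peptidase that cuts angiotensins, natriuretic peptides and kinins. Its promoter and the region just inside the gene had differences of opposite sign. The promoter region (chr3:63295245-63296746, summit 78 bp upstream of a start) ranked 71.0, 68.8 and 76.0 in Sham and 82.5, 72.4 and 93.2 in UNx libraries. UNx 2 lay inside the Sham range, and the other 2 UNx values were above it. The difference was 10.8 ± 4.99 (SE; interval 0.306 to 21.3; limma adjusted p = 0.255), and 5.52 without UNx 3. In the intron at +1888 bp (chr3:63297857-63298130) the ranks were 64.6, 78.2 and 76.0 in Sham and 41.2, 60.5 and 47.8 in UNx, so that every UNx value was below every Sham value. This difference, −23.1 ± 6.97 (SE; interval −37.7 to −8.44; limma adjusted p = 0.100), had the smallest p of the 47 tested regions. With the comprehensive GENCODE starts, an alternative added after the data were seen, its summit was 931 bp from a start and the region counted as a promoter. The strongest distal region, at +44721 bp, ranked 83.4, 86.6 and 87.2 in Sham and 82.4, 86.0 and 83.6 in UNx, with overlap and a difference of −1.70 (interval −7.65 to 4.25). Of the other 4 of its 7 regions, that at +28209 bp was in all 6 lists and those at +29535, +53104 and +55899 bp were in 1, 4 and 2.

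Enpep encodes aminopeptidase A, which turns angiotensin II into angiotensin III. Its promoter region (chr3:129331527-129333059, summit 7 bp upstream) ranked 88.6, 92.2 and 93.7 in Sham and 96.2, 95.4 and 95.2 in UNx libraries. The UNx values were close together and above all Sham values. The difference was 4.10 ± 1.80 (SE; interval 0.328 to 7.88; limma adjusted p = 0.230), and 2.65 without Sham 1. The strongest of its 10 distal regions, in an intron at +59360 bp, ranked 87.5, 85.8 and 81.0 in Sham and 84.9, 82.3 and 75.6 in UNx, with overlap and a difference of −3.83 (interval −11.1 to 3.41) that ran from −1.14 without UNx 3 to −5.83 without UNx 1. In 2 distal regions the groups lay apart with lower UNx values, at +4496 bp (73.8, 81.9 and 74.8 against 70.1, 69.9 and 67.7) and at +74033 bp (37.6, 53.0 and 43.0 against 28.8, 19.6 and 32.8). Their limma adjusted p-values were 0.410 and 0.359. Of the 11 regions 8 were in all 6 lists, that at +32636 bp was in 5, and those at +35462 and +36762 bp were each in 1.

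Anpep encodes aminopeptidase N, among the most abundant proteins of the brush border, and its promoter region was the strongest of the 7 genes. The gene has 2 annotated starts in the basic GENCODE set and 6 in the comprehensive one. Of the 2, the downstream one corresponds in human to epithelial expression and the upstream one to myeloid expression. The downstream promoter region (chr7:79841509-79843232, summit 22 bp upstream) ranked 95.9, 97.7 and 97.8 in Sham and 96.6, 97.8 and 97.2 in UNx libraries. The values of the 2 groups were interleaved. The difference was 0.0638 ± 1.36 (SE; interval −2.79 to 2.92; limma adjusted p = 0.988). The upstream promoter region (chr7:79847611-79848488) ranked 36.3, 41.0 and 17.1 in Sham and 34.3, 38.2 and 29.6 in UNx, far below the downstream one in all 6 libraries. An intronic region at +4918 bp (chr7:79836976-79837762) ranked 90.8, 80.8 and 87.8 in Sham and 96.1, 91.9 and 92.9 in UNx. Every UNx value was the higher there, by 7.17 ± 2.52 on average (SE; interval 1.89 to 12.4; limma adjusted p = 0.143), and by 4.36 without Sham 2. The strongest distal region, at +13818 bp, ranked 89.9, 94.5 and 88.5 in Sham and 91.9, 90.9 and 94.6 in UNx, with overlap. A region in the 3′ flank, 453 bp from the start of Mesp2, ranked 76.7, 75.8 and 69.2 in Sham and 40.9, 50.9 and 76.4 in UNx, with UNx 3 inside the Sham range (limma adjusted p = 0.217). The remaining regions, at +38259 and +7039 bp, were in 6 lists and 1 list.

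**Figure D3:**
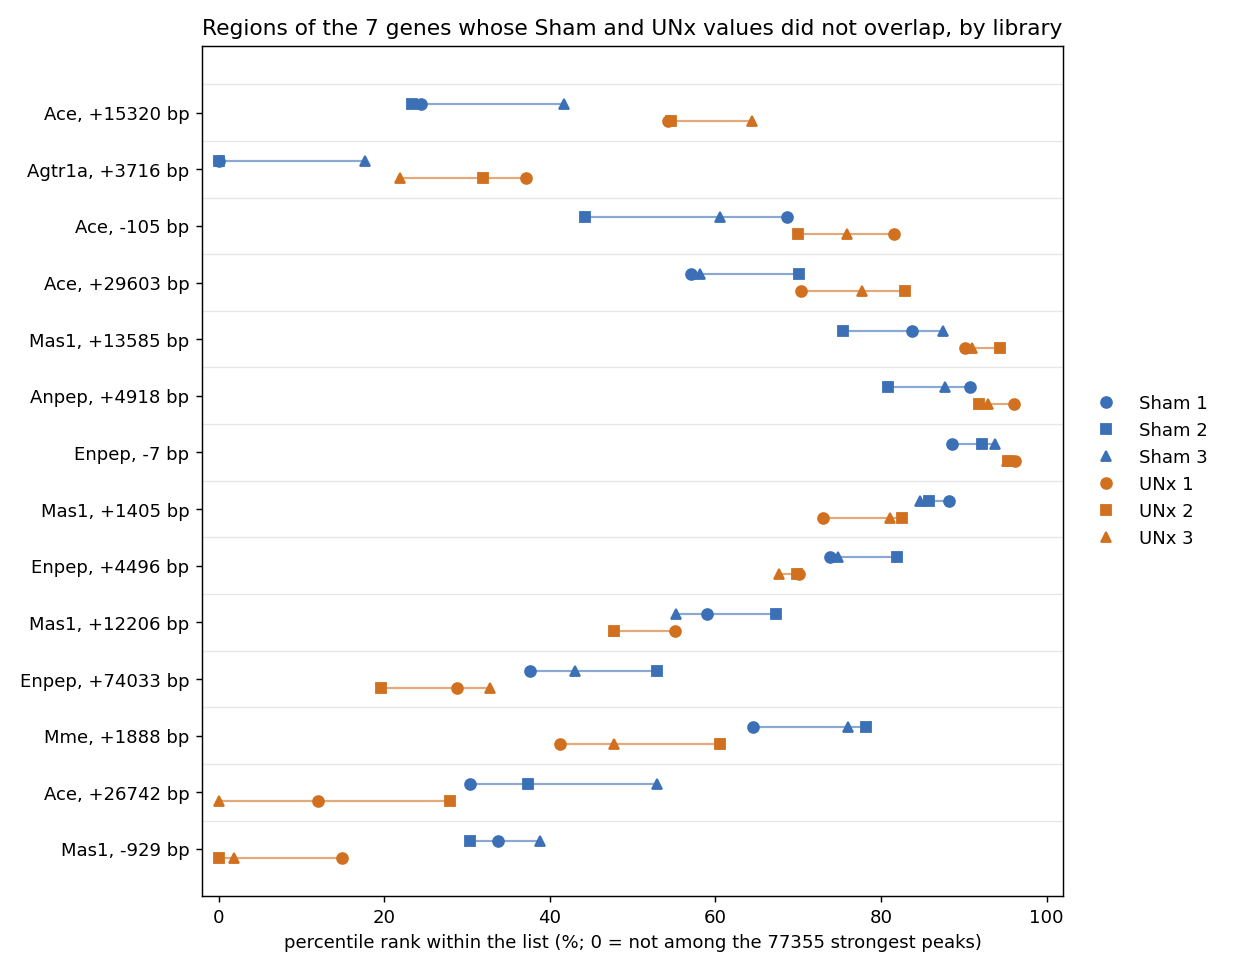
Percentile ranks in each library at the 14 regions of the 7 genes whose Sham (blue) and UNx (orange) values did not overlap, ordered by the difference. The upper 7 are higher in UNx and the lower 7 are higher in Sham, with Ace +15320 bp at the top and Mas1 −929 bp at the bottom. Agtr1a +3716 bp met the filter for testing only through the UNx libraries.

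Over the 6 libraries the promoter regions fell in a broad order. Mean ranks were 97.2 at the downstream Anpep start, 94.3 at the internal Ace start, 93.5 at Enpep, 87.4 at Agt, 77.3 at Mme, 70.3 at Agtr1a, 66.8 at the full-length Ace start, 32.8 at the upstream Anpep start, and 19.9 and 15.5 at the Mas1 starts (−929 and −163 bp). The ranges of neighbours in this order overlapped, except that the full-length Ace promoter was above the upstream Anpep promoter in all 6 libraries with no overlap. Compared within each library, the promoter with the larger mean ranked above its neighbour in 3 to 5 of the 6 libraries in the other pairs. The overlap of ranges ignores this pairing by library, and differences between neighbours were not tested. Set against the promoter regions of 13795 protein-coding genes, the downstream Anpep promoter ranked above 87.1%, the Enpep promoter above 72.8%, the Agt promoter above 54.6% and the Agtr1a promoter above 28.0%. The Mas1 promoter at −929 bp ranked above 8.71%. The 10 promoter regions of the 7 genes, weak second starts included, had a median rank of 73.8. When only the strongest promoter region of each gene was taken, the middle one of the 7 was Agt at 87.4. The median of protein-coding genes taken in that way was 86.4. The distal regions of the 7 genes had a median of 45.8, against 48.4 for all tested regions, which include promoters.

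**Figure D4:**
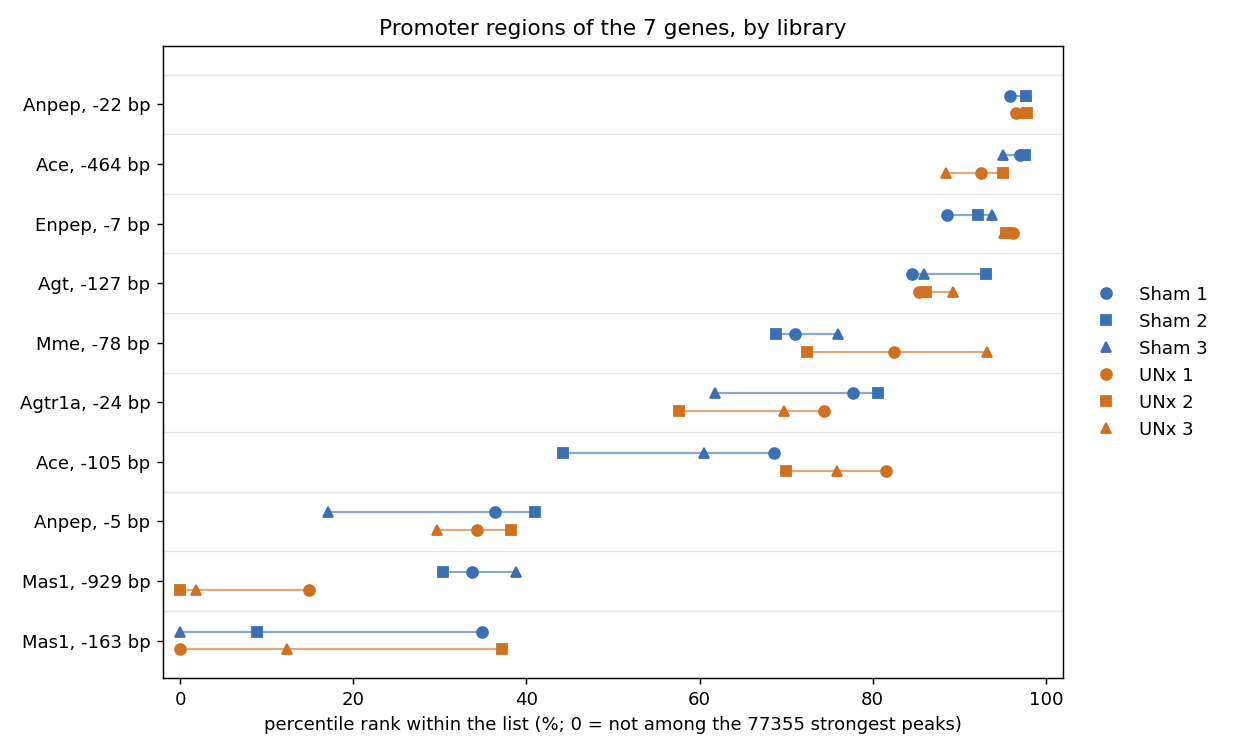
Percentile rank of the 10 promoter regions in each library, with Sham in blue, UNx in orange, a marker shape per replicate and lines over the range of each group. The Anpep −22 bp, Ace −464 bp and Enpep −7 bp regions lie at 88.4 or above in every library, and the 2 Mas1 regions at 38.8 or below.

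Promoter and distal regions had medians of opposite sign. The median difference was 0.993 percentile points over the 10 promoter regions, 6 of them higher in UNx, and −1.70 over the 35 tested distal regions, 17 of them higher. An unadjusted limma p under 0.05 was found in 5 of the 10 promoter and 9 of the 35 distal regions, and separate groups in 3 and 11. Over all protein-coding promoters the shares were 13.2% and 19.9%, and over all tested regions 18.6% and 23.7%. The protein-coding promoters are only the strongest of each gene, while the 10 include second starts, so these sets are not alike. The difference between these 2 classes was not tested.

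The 7 genes differed in how many open regions surrounded them. Counting regions in at least 3 lists, Ace had 1.61 per 10 kb of gene and flanks, a density above that of 94.0% of 21911 protein-coding genes. Mas1 followed with 1.19 (above 84.7%), then Enpep with 0.869, Anpep with 0.757, Agt with 0.752 and Agtr1a with 0.579. Mme, the longest of the 7 genes, had 0.271, above 35.3% of genes, and the median protein-coding gene had 0.484.

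**Figure D5:**
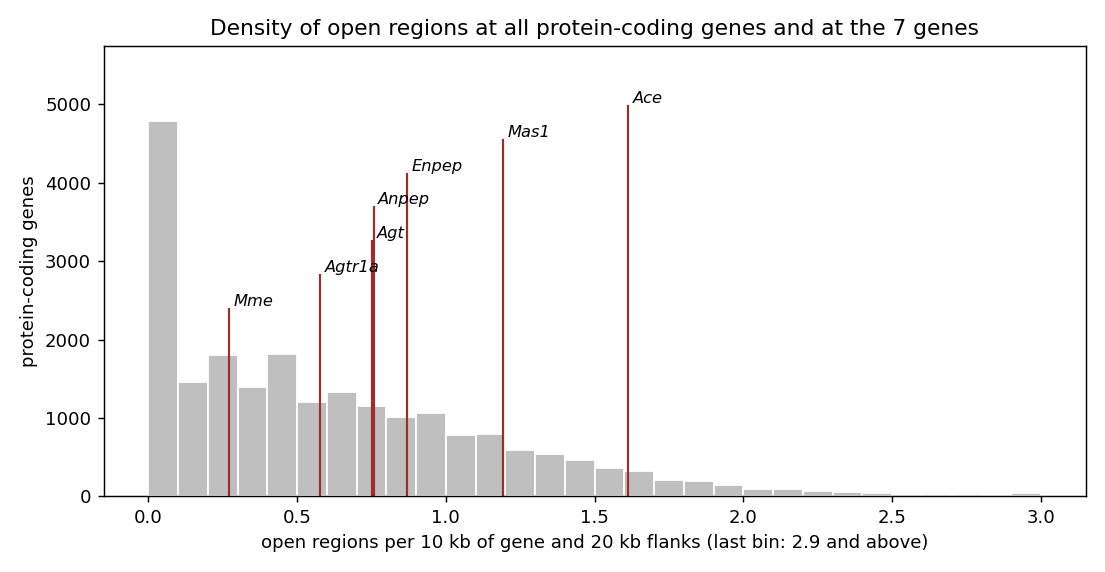
Histogram of the number of open regions per 10 kb of gene and flanks over 21911 protein-coding genes (grey, last bin open-ended), with red lines at the 7 genes whose heights carry no meaning. Ace at 1.61 and Mas1 at 1.19 lie in the upper tail, and Mme at 0.271 lies below the median of 0.484.

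Presence in the lists did not separate the operations. Of the 57 regions, 36 were in all 6 shortened lists and 8 in 1. The libraries held 43, 52 and 45 of them in Sham and 41, 46 and 46 in UNx, Sham 2 holding the most and being the only list that was not shortened. The difference of means was −2.33 regions (two-sided exact permutation test, p = 0.6, smallest possible 0.1), and it was 0.667 with all deposited peaks and 0.333 without Sham 2. Promoter regions numbered 10, 10 and 9 in Sham and 9, 9 and 10 in UNx libraries. Distal regions numbered 31, 40 and 34 in Sham and 30, 36 and 34 in UNx.

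Other genes of the renin-angiotensin system were read from the same comparison. Of 17 genes, 10 had a promoter region and 7 had none: Ren1, Agtr1b, Agtr2, Cma1, Ctsg, Mrgprd and Cpa3, which include renin and the genes of mast cell and neutrophil proteases. No gene passed the adjusted test, none had an unadjusted limma p under 0.05, 1 of 10 was higher in UNx, against 47.1% of protein-coding promoters, and the median difference was −2.11. The strongest promoters were those of the insulin-regulated aminopeptidase Lnpep (mean rank 98.9) and of neurolysin, Nln (98.2). Agtrap, which encodes a protein that binds the AT1 receptor, ranked 82.9, 80.6 and 82.3 in Sham and 72.9, 77.2 and 74.6 in UNx libraries, with no overlap (limma adjusted p = 0.344). Ctsa, the gene of cathepsin A, ranked 83.1, 87.8 and 79.9 in Sham and 81.5, 77.9 and 74.1 in UNx, with overlap (limma adjusted p = 0.426).

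A list of 12 other genes held brush border peptidases and partners together with enzymes of the cytosol such as Lap3 and Acy1. Of these 12, 10 had a promoter region, and Mep1b and Naalad2 had none. No promoter passed the adjusted test, 1 of 10 (Lap3) had an unadjusted limma p under 0.05, against 13.2% of protein-coding promoters, 7 of 10 were higher in UNx, against 47.1%, and the median difference was 3.47, against −0.190 over the 13203 tested protein-coding promoters, of which limma called 52. The strongest were those of Dpp4, dipeptidyl peptidase 4 (mean rank 98.6), and of the cytosolic aminoacylase Acy1 (97.5). Lap3, which encodes a cytosolic leucine aminopeptidase, ranked 96.1, 96.9 and 96.4 in Sham and 87.9, 87.1 and 94.3 in UNx libraries, lower in every UNx library (limma adjusted p = 0.0959). Mep1a, a meprin subunit, ranked 45.5, 51.4 and 59.8 in Sham and 67.9, 65.0 and 59.4 in UNx, with UNx 3 just inside the Sham range (limma adjusted p = 0.370). All of these comparisons use the same 6 libraries.

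The promoter with the smallest p among the 7 genes, Mas1 −929 bp, was set beside all protein-coding promoters. The nearest profiles over the 6 libraries, by Euclidean distance in percentile points, were Trim30d (10.4), Hoxb8 (11.9) and Hecw2 (17.1). Trim30d ranked 28.8, 31.3 and 33.6 in Sham and 22.3, 0 and 0 in UNx libraries, a low profile like that of Mas1. This likeness is a description, since the Mas1 region was picked by its p-value.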

How the data were processed

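Per the labels, each of the 6 ATAC-seq libraries held 3 dissected S1 tubules. The submitters' processing notes name cutadapt 3.4, Bowtie, SAMtools, Picard, MACS2 2.2.7.1 and mm10, with no order; caller settings and the filter on the lists are not given in the sources used here. The authors deposited 1 narrowPeak list per library, so peaks were not called on pooled samples. Each deposited summit has a display score, a fold enrichment, which is a ratio to the background of the caller, a −log10 p, a −log10 q and a summit offset. Scores and −log10 p were not used in tests. The lists hold no read counts, so depth is unknown and only ranks within a list were compared.

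Summits sharing an interval were reduced to the strongest, giving 1 peak per interval, and chromosomes other than 1 to 19, X and Y were left out. Lists were shortened to 77355 peaks, ranked by −log10 q, and merged at 1 bp overlap into 99359 regions. All intervals fit GRCm38. The 74781 regions in at least 3 lists were tested with limma 3.58.1 in R 4.3.3 (two-sided, robust variance with a trend, threshold 0.05 after Benjamini-Hochberg adjustment over all tested regions), after a check on simulated ranks. Presence was compared by an exact permutation test. Python 3.11.15, numpy 2.4.6, pandas 2.3.3 and scipy 1.17.1 were used.

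The members, gene lists and strings were chosen with earlier results of these data known. Named by rule were each gene's strongest promoter and distal region and up to 3 regions with separate groups and a limma p under 0.05. From the other lists these were the 2 strongest and the 2 of smallest p. Other regions are given to account for all 57. A few selected items are not reported here. Same-numbered libraries did not deviate together (correlations 0.00819, −0.100 and −0.0496), and the libraries are therefore not treated as pairs. Alternatives were all deposited peaks, a −log10 q of at least 5, ranks by fold enrichment, 50% overlap, normal scores, no filter on lists, GC-corrected ranks, a replicate block, leaving out each library, narrower or wider windows and, added later, other annotated starts.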

Additional observations from a re-analysis of the deposited data

How the results depend on the processing

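No region of the 7 genes was called under any of the 15 alternatives, with a lowest adjusted p of 0.0711 (Mme +1888 bp, normal scores), and no other pathway promoter was called with a 2.5 kb window or all deposited peaks. The 589 calls among all regions were 22 with all deposited peaks, 180 with a −log10 q of at least 5, 3 by fold enrichment, 1580 with normal scores, 2 with no filter, 2 with GC-corrected ranks and 4 to 76 when a library was left out. The cause was not tested. The replicate block gave 56, and the replicate block with GC-corrected ranks gave 0 (12390 at an unadjusted limma p under 0.05); neither changed a call at the 7 genes. The presence difference was 0.667 with all deposited peaks, 2.33 with a −log10 q of at least 5, and −4.17 to 0.333 when a library was left out. Small differences changed sign: Agt −3947 bp was −10.0 by fold enrichment, −0.00687 in normal scores, −0.753 with GC-corrected ranks, with or without the block, and −9.41 to 5.78 when a library was left out. Anpep −22 bp was −5.77 by fold enrichment, −1.25 with GC-corrected ranks, with or without the block, and −0.556 to 0.379 when a library was left out. Mme +44721 bp was 0.0312 with GC-corrected ranks, with or without the block. Leaving out 1 library moved Agt −127 bp over −2.60 to 1.64 and Ace −16246 bp over −0.159 to 3.79. The other 17 named regions kept their direction under each alternative that gave a value. With the comprehensive starts, Mme +1888 bp and Enpep +24421 bp (735 bp from a start) became promoter regions. Sequencing depth and the caller's settings limit what a rank can show, and a region at 0 may still be a weaker peak.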
